A study of Mus musculus with 6 samples.

Results

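Insulin-like growth factor 1 (Igf1), its receptor Igf1r, the secreted binding proteins Igfbp2 to Igfbp7 and the receptor substrates Irs1 and Irs2 were followed by RNA-seq through the late fetal and postnatal growth of mouse gastrocnemius, a calf muscle of mixed but mainly fast fibres. The 10 genes were taken by name as the core of the IGF1 signalling system, and all 10 were among the 23367 gene entries of the deposited table and among the 16882 genes tested. The samples were wild-type FVB mice with no treatment: an E18.5 library pooled from male and female fetuses, a PN2 library pooled from males, 2 PN14 libraries (replicates 1 and 2, 1 male each), and 1 male each at PN28 and at 22 weeks (adult). Only PN14 has a replicate, so every test takes the spread of the PN14 pair for the spread at all 5 stages, and sex cannot be told apart from stage at E18.5. Pooling cannot be told apart from stage either, since the E18.5 and PN2 libraries are pools and those from PN14 on are single mice, so that the PN2 to PN14 comparison sets a pool against single mice. Each library had a sequencing lane of its own, so lane and stage cannot be told apart either.

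IGF1 is a secreted peptide related to insulin that drives muscle growth and is made both in the liver, under growth hormone, and locally in muscle. It binds IGF1R, a receptor tyrosine kinase, which phosphorylates the adaptor proteins IRS1 and IRS2 and through them starts the PI3K, AKT and mTORC1 cascade. In the fluid around cells most IGF is held by IGF binding proteins, which extend its life in the blood or keep it from the receptor, and proteases that cut these proteins set it free.

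The libraries held between 125402932 and 157868359 counts on genes, so that a count of 3 was worth between 0.0190 and 0.0239 CPM (counts scaled to library size). Markers of muscle fibres were detected at every stage, with Acta1 between 11979 and 37682 FPKM (the authors' measure per gene length and library size). The 20 most abundant genes took 16.03% and 16.67% of the counts at E18.5 and PN2 and between 27.99% and 36.9% from PN14 on, and their part in the differences between scalings was not tested. The main comparison scaled the libraries by TMM (edgeR), which leaves the median gene near no change. With scaling by library size alone the median log2 fold change of all tested genes was -0.66 from PN2 to PN14 and -1.08 from E18.5 to adult, and results that depend on this choice are given under both. In whole muscle, fewer cells of a type and less RNA per cell cannot be told apart.

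The ligand and its receptor both fell between PN2 and PN14, but they differed from PN28 to adult. Igf1 was at 51.4 FPKM at E18.5, 37.7 at PN2, 6.87 and 10.3 at PN14 (replicates 1 and 2), 9.95 at PN28 and 2.96 at 22 weeks. Both PN14 libraries lay far below the 2 earlier ones, PN28 lay between the PN14 pair in FPKM, and the adult was the lowest of the 6. After TMM scaling, Igf1 fell by 1.50 on the log2 scale from PN2 to PN14 (SE 0.223, edgeR adjusted p = 0.00878), a 2.82-fold drop. Between E18.5 and adult it fell by 3.16 (SE 0.290, edgeR adjusted p = 0.00131). From PN28 to adult the log2 fold change of Igf1 was -1.67 (SE 0.275, edgeR adjusted p = 0.0630), a 3.18-fold difference. The main test did not call it, whereas the DESeq2 Wald test and the edgeR exact test did. Over the same step Igf1r was at -0.01. In normalized CPM the order of the stages was E18.5, PN2, PN28, PN14 and adult, with each step larger than the 1.26-fold gap between the PN14 mice, although the step from PN14 to PN28 was not called (log2 fold change 0.45, SE 0.228, edgeR adjusted p = 0.641).

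Igf1r, the receptor through which both IGF1 and IGF2 signal, was at 10.3 FPKM at E18.5, 9.11 at PN2, 2.27 and 2.75 at PN14, 1.64 at PN28 and 1.48 at 22 weeks. The PN14 pair was nearly equal after scaling, at 32.3 and 32.7 normalized CPM, and well below the 75.1 of PN2. It fell by 1.21 from PN2 to PN14 (SE 0.164, edgeR adjusted p = 0.00720) and by 1.77 from E18.5 to adult (SE 0.201, edgeR adjusted p = 0.00184). PN28 and adult differed by less than the PN14 mice did, at 25.0 and 24.8 normalized CPM, so that most of the drop was complete by PN14.

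**Figure D1:**
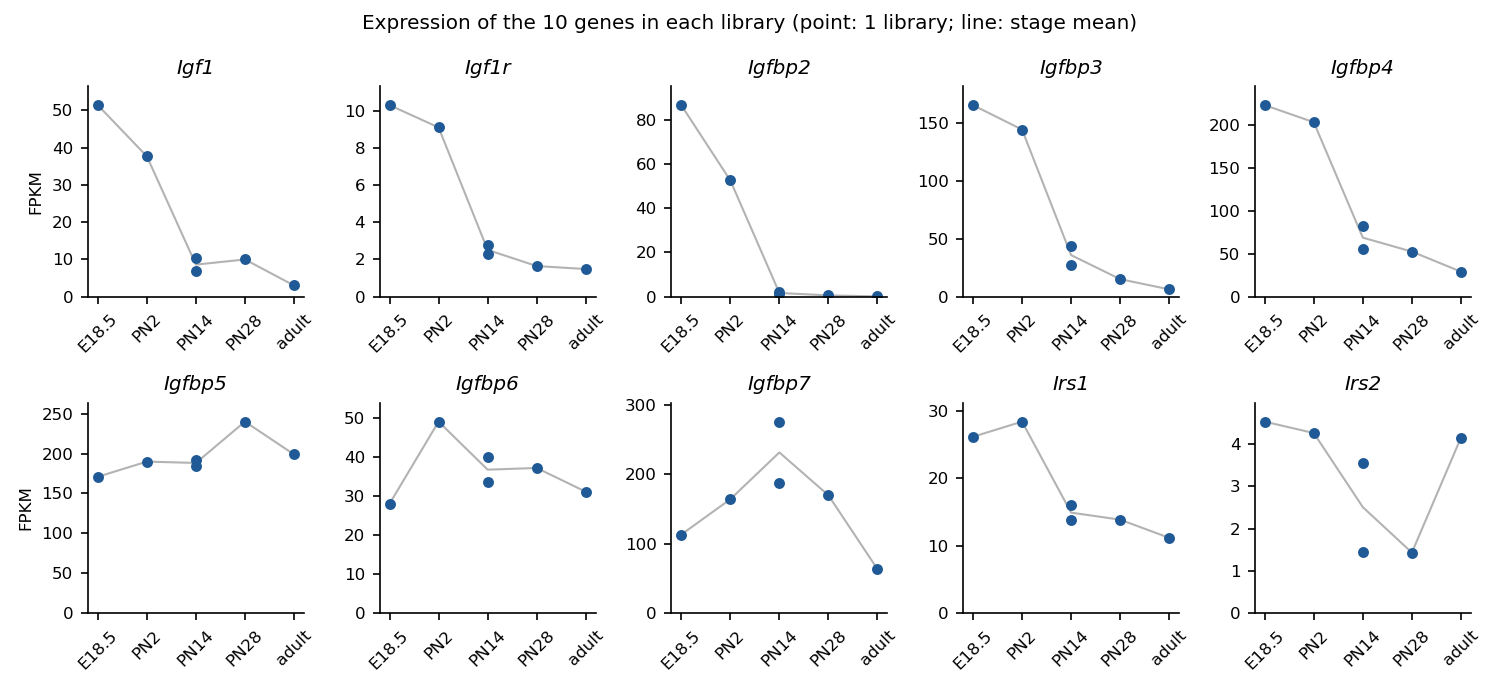
FPKM (vertical axis of each panel, linear from 0) of the 10 genes at the 5 stages (horizontal axis), with 1 point per library and a line through the stage means. Igf1, Igf1r, Igfbp2, Igfbp3 and Igfbp4 are high at E18.5 and PN2 and low from PN14 on, Igfbp5 stays between 171 and 240 FPKM, Igfbp7 is highest at PN14, and the PN14 points of Irs2 lie apart at 3.56 and 1.45.

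The binding proteins parted into genes that fell, led by Igfbp2, and genes that held their level or rose. Igfbp2, a fetal binding protein in many tissues, was at 86.55 FPKM at E18.5, 52.5 at PN2, 1.14 and 2.05 at PN14, 0.49 at PN28 and 0.05 at 22 weeks, where it rested on 10 counts against 17406 at E18.5. Each later stage was lower than the one before, and both PN14 libraries lay below PN2 and above PN28. Only PN14 had more than 1 library. From PN2 to PN14 Igfbp2 fell by 4.40 on the log2 scale (SE 0.260, edgeR adjusted p = 0.00279), and from E18.5 to adult by 9.58 (SE 0.475, edgeR adjusted p = 9.84e-04). Its later steps of -1.45 to PN28 and -3.01 from there to the adult were not called (edgeR adjusted p = 0.409 and 0.0619).

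Igfbp3, the main carrier of IGF1 in blood, was at 165 FPKM at E18.5, 144 at PN2, 27.5 and 43.9 at PN14, 14.95 at PN28 and 6.18 at 22 weeks. It fell by 1.38 from PN2 to PN14 (SE 0.243, edgeR adjusted p = 0.0128) and by 3.71 from E18.5 to adult (SE 0.325, edgeR adjusted p = 0.00125), while E18.5 and PN2 were closer than the PN14 mice, which differed 1.33-fold in normalized CPM. Igfbp4, known mostly as an inhibitor of IGF action until it is cut by the protease PAPP-A, was at 223 FPKM at E18.5, 203 at PN2, 54.8 and 82.1 at PN14, 52.2 at PN28 and 28.9 at 22 weeks. It fell by 1.92 from E18.5 to adult (SE 0.305, edgeR adjusted p = 0.00415). From PN2 to PN14 its log2 fold change was -0.93 (SE 0.248, edgeR adjusted p = 0.0377), just short of the 2-fold size required for a call, and with library size alone it was called at -1.57. PN28, at 134 normalized CPM, lay between the PN14 mice at 131.5 and 164.4.

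Igfbp5 kept its level in FPKM. This binding protein, which sits in the extracellular matrix and is made by differentiating myoblasts, was at 171 FPKM at E18.5, 190 at PN2, 184 and 192 at PN14, 240 at PN28 and 199 at 22 weeks, a 1.40-fold range over all 6 libraries. In normalized CPM the same libraries ran from 684 at E18.5 to 1778 at PN28, and the direction of the PN2 to PN14 step turned on the scaling, with a log2 fold change of 0.65 under TMM (SE 0.443, edgeR adjusted p = 0.297) and -0.01 with library size alone. Between E18.5 and adult it was 1.24 (SE 0.505, edgeR adjusted p = 0.0815) and not called by the main test, whereas the DESeq2 Wald test (adjusted p = 4.01e-04) and the edgeR exact test (adjusted p = 0.00391) did call it.

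Igfbp6, which prefers IGF2 over IGF1, was at 27.99 FPKM at E18.5, 49.1 at PN2, 33.6 and 39.9 at PN14, 37.2 at PN28 and 31.1 at 22 weeks. It rose by 1.18 from E18.5 to adult under TMM (SE 0.198, edgeR adjusted p = 0.00491), but by only 0.15 with library size alone, where it was not called, and its PN2 to PN14 value turned from 0.24 to -0.42. Igfbp7, a low-affinity IGF binder that is abundant around blood vessels, was at 113 FPKM at E18.5, 164 at PN2, 187 and 276 at PN14, 170 at PN28 and 63.2 at 22 weeks. In FPKM the 2 PN14 libraries were the highest of the 6 and the adult the lowest. In normalized CPM the PN14 pair was again highest, but E18.5 was lowest, at 83.0 against 94.5 in the adult. It rose by 1.14 from PN2 to PN14 under TMM (SE 0.263, edgeR adjusted p = 0.0255). With library size alone this was 0.50 and not called (adjusted p = 0.201), and without PN14 replicate 2 the value was 0.98. Its log2 fold change from E18.5 to adult was 0.19 under TMM and -0.84 with library size alone, neither of them called.

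Endothelial markers (6 of 6 measured) were set beside Igfbp7, and their summed FPKM was 185 at E18.5, 188 at PN2, 175 and 261 at PN14, 128 at PN28 and 69.0 at 22 weeks, with none at 0. Of these 6, 2 rose and none fell from PN2 to PN14 under TMM (beside 11.8% and 11.2% of all tested genes). None was called from E18.5 to adult. In FPKM the endothelial sum, like Igfbp7, was higher in PN14 replicate 2 than in replicate 1 and lowest in the adult. The same held for the summed pericyte and smooth muscle markers, at 169 and 318 FPKM in the PN14 pair and 69.3 in the adult. Their early values, 302 FPKM at E18.5 and 284 at PN2, lay between those of the PN14 mice. Igfbp7, by contrast, was lower at both early stages than in either PN14 mouse. The part of these cells in the values of Igfbp7 was not tested.

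**Figure D2:**
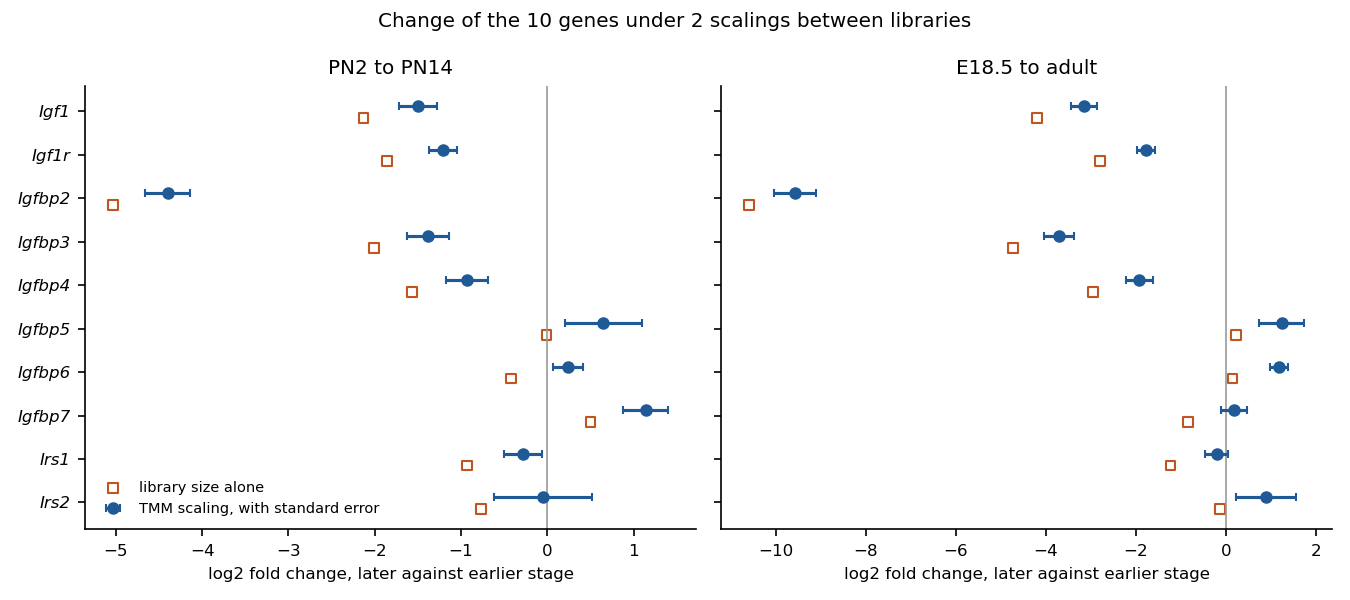
Log2 fold change (horizontal axis, later against earlier stage) of the 10 genes from PN2 to PN14 and from E18.5 to adult, with filled points and standard errors for TMM scaling and open squares for library size alone. The squares of every gene lie to the left of its point, and Igfbp5 and Igfbp6 (PN2 to PN14) and Igfbp7 and Irs2 (E18.5 to adult) change sign.

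With Igfbp2, Igfbp3 and Igfbp4 falling and Igfbp5 keeping its FPKM, the make-up of the binding protein mRNAs shifted. A share within a library does not depend on the scaling between libraries. Over Igfbp2 to Igfbp7, the sum was 786 FPKM at E18.5, 802 at PN2, 489 and 636 at PN14, 514 at PN28 and 328 at 22 weeks. Igfbp5 made up 21.7% of that sum at E18.5, 23.7% at PN2, 37.7% and 30.2% at PN14 (34.0% ± 5.32, SD, n = 2), 46.6% at PN28 and 60.6% at 22 weeks. Igfbp4 led per length at E18.5 with 28.3% and was down to 8.79% in the adult. By counts not divided by length Igfbp5 led at every stage, from 47.3% at E18.5 through 68.2% at PN14 to 86.6% in the adult. Igfbp3 went from 21.0% to 1.88% and Igfbp2 from 11.0% to 0.0152%. Igfbp7 held the largest share per length at PN14, with 38.3% and 43.4%, against 14.4% at E18.5 and 19.3% in the adult. Set against each other, Igfbp5 mRNA was 1.97 times Igfbp2 mRNA per length at E18.5 and 3977 times in the adult. The adult ratio is rough, since it divides by an Igfbp2 FPKM of 0.05 that rested on 10 counts. The ratio of Igfbp5 to Igfbp3 went from 1.04 to 32.2.

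**Figure D3:**
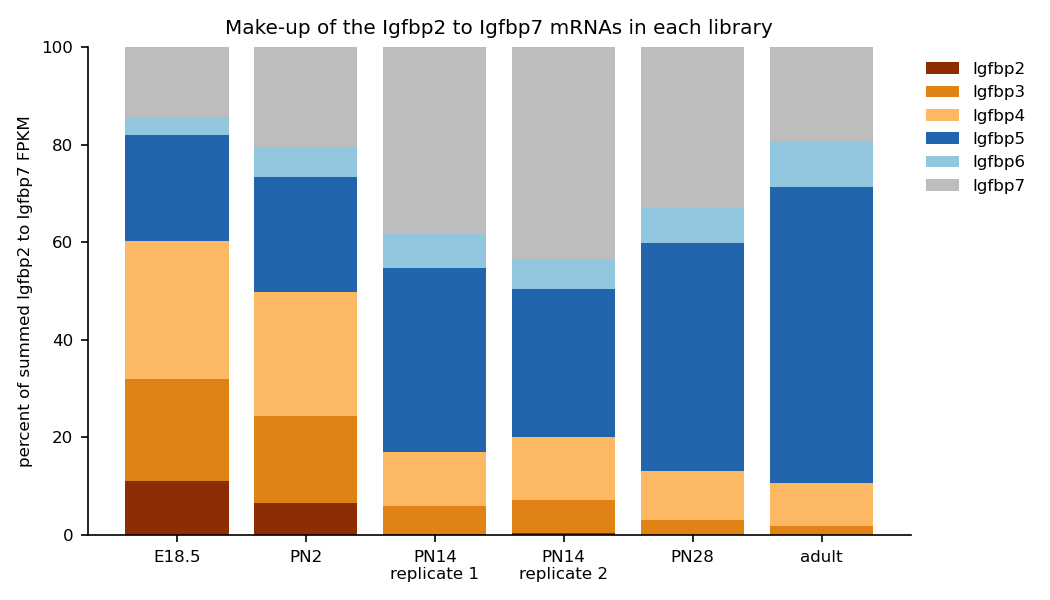
Stacked bars of the percent of summed Igfbp2 to Igfbp7 FPKM (vertical axis) held by each binding protein in each of the 6 libraries (horizontal axis). The Igfbp5 part grows from 21.7% at E18.5 to 60.6% in the adult, and the Igfbp2, Igfbp3 and Igfbp4 parts shrink.

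Igfbp2 and Igfbp5 are neighbours. In mm9, the build of the authors' alignment, Igfbp2 lies at chr1:72871077-72899048 on the plus strand and Igfbp5 at chr1:72904506-72921458 on the minus strand, so that they face each other end to end with 5.46 kb between them. Igf1 is at chr10:87321010-87399792 (plus) and Igf1r at chr7:75097713-75371484 (plus). Igfbp3 is at chr11:7106089-7113926 (minus), 3.54 kb from Igfbp1 at chr11:7097785-7102549 (plus), which had at most 12 counts in any library. Igfbp4 is at chr11:98902558-98913969 (plus), Igfbp6 at chr15:101974793-101979942 (plus) and Igfbp7 at chr5:77778265-77837070 (minus). Irs1 is at chr1:82229676-82287991 (minus) and Irs2 at chr8:10986980-11008458 (minus). In the GENCODE M1 annotation, exons of Igfbp7 share 85 bases with Polr2b on the opposite strand, those of Irs1 share 2822 bases with Gm9747 and those of Irs2 share 162 bases with 9530052E02Rik. The sources used here do not say whether counting used strand, so reads from these stretches cannot be assigned.

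All 10 genes had a promoter window of 250 bases before to 50 after a transcription start in the RefSeq set (build GRCm38.p6, whose positions differ from those of mm9), and Igfbp2 had 2. Those of Igf1 and Igfbp2, which fell, and of Igfbp5, the neighbour of Igfbp2 that kept its FPKM, are shown so that they can be set beside their levels. Capitals mark matches to 3 short motifs on either strand: TATAAA (the TATA box), GGGCGG (the GC box bound by SP1) and CANNTG (the E box bound by MYOD and related factors), with no overlap between matches of different motifs.
Igf1, chr10:87860861-87861160, plus strand: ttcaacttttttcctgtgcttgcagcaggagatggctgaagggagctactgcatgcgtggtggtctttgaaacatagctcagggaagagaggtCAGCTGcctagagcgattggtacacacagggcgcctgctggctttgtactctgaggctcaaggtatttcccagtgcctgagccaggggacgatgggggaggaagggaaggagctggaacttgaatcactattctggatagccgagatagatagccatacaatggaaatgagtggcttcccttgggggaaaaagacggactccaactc
Igfbp2, chr1:72824230-72824529, plus strand: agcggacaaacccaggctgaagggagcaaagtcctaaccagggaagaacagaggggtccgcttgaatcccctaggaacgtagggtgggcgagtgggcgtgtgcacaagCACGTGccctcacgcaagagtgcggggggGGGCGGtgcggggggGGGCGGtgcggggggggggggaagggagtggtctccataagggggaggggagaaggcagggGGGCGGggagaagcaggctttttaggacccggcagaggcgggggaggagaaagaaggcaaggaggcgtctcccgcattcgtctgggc
Igfbp5, chr1:72874816-72875115, minus strand: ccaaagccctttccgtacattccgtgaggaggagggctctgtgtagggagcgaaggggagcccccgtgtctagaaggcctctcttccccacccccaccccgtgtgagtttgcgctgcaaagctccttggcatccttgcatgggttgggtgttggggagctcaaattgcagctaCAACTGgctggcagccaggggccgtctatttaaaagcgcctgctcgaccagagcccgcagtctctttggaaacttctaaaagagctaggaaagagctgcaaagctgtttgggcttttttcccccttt

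The Igfbp2 window shown, the upstream one, held 3 GC boxes and 1 E box with a GC content of 67.0%. Its other window, chr1:72825137-72825436, held no GC box and 2 E boxes at 57.3%, close to that of Igfbp5 with 1 E box and no GC box at 56.3%. The Igf1 window held 1 E box at 52.3%, against a median of 52.7% over all 32851 windows. A GC box was present for 5 of the 10 genes (Igf1r, Igfbp2, Igfbp7, Irs1 and Irs2) and in 35.7% of all windows. An E box was found for 8 of the 10 genes and in 72.3% of all windows. TATAAA was matched for Igfbp4, beginning 28 bases before the start, and for Igfbp6, beginning 148 bases before it, and in 13.6% of all windows. Genes that fell and genes that did not are found both with and without a GC box. These are matches of letters only.

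Neither receptor substrate was called in any interval under TMM. Irs1 was at 26.1 FPKM at E18.5, 28.4 at PN2, 13.8 and 15.9 at PN14, 13.9 at PN28 and 11.2 at 22 weeks. In normalized CPM it stayed between 143 and 179 in all 6 libraries, with a log2 fold change from E18.5 to adult of -0.20 under TMM (SE 0.252, edgeR adjusted p = 0.522). With library size alone the value was -1.23 and called (adjusted p = 0.00219), which is close to the shift of the median gene. Irs2 was at 4.53 FPKM at E18.5, 4.26 at PN2, 3.56 and 1.45 at PN14, 1.43 at PN28 and 4.15 at 22 weeks. The PN14 mice differed 2.91-fold in normalized CPM and lay on either side of PN2, the widest gap of the 10 genes. No Irs2 step was called under TMM, but its PN28 to adult difference was called with library size alone (log2 fold change 1.54, against 1.68 under TMM). The PN2 to PN14 value was -0.05 with both PN14 libraries (SE 0.571, edgeR adjusted p = 0.952), -1.03 without replicate 1 and 0.53 without replicate 2.

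Of the 4 consecutive intervals, the main test made calls among the 10 genes in that from PN2 to PN14 only. From E18.5 to PN2, edgeR called 0 of the 10 (0.0296% of all tested genes), with 1 at an unadjusted p under 0.05 (Igfbp6, beside 6.64% of all genes), and 0 by the DESeq2 Wald test. From PN2 to PN14, 5 of 10 were called against 23.0% of all tested genes. Igf1, Igf1r, Igfbp2 and Igfbp3 fell (4 of 10, against 11.2% of all genes) and Igfbp7 rose (1 of 10, against 11.8%). The median log2 fold change of the 10 was -0.60, beside -0.01 for all tested genes. From PN14 to PN28, 0 of 10 were called (0.0178% of all genes), with 2 at an unadjusted p under 0.05 (Igfbp2 and Igfbp3, beside 8.41% of all genes) and 1 by the DESeq2 Wald test (Igfbp2, beside 135 of 16882 genes). From PN28 to adult, 0 of 10 were called (0.521% of all genes), with 4 at an unadjusted p under 0.05 (18.3% of all genes) and 4 by the DESeq2 Wald test (808 of 16882 genes), in both cases Igf1, Igfbp2, Igfbp3 and Igfbp7. From E18.5 to adult, 6 of 10 were called against 44.9% of all genes, namely Igf1, Igf1r, Igfbp2, Igfbp3 and Igfbp4, which fell (5 of 10, against 23.6%), and Igfbp6, which rose (1 of 10, against 21.4%). In this last comparison the background was high, and the median log2 fold change of the 10 was -0.99 beside -0.05.

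Without a test, differences of at least 2-fold in normalized CPM were counted among genes that reached 1 CPM. They were seen in 0 of 10 genes from E18.5 to PN2 (3.44% of all genes), 5 of 10 from PN2 to PN14 (27.0%), 1 of 10 from PN14 to PN28 (3.30%), 4 of 9 from PN28 to adult (10.2%) and 7 of 10 from E18.5 to adult (49.6%). The 4 from PN28 to adult were Igf1, Igfbp3 and Igfbp7, which were lower, and Irs2, which was higher. Neighbouring intervals share a stage, so their counts are not independent.

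Summed levels of fibroblast, satellite cell, proliferation, and bone and cartilage markers were lower from PN14 on, as were the falling genes. Macrophage and tendon markers were lower as well, at 91.0 and 153 FPKM at E18.5 and 28.5 and 19.2 in the adult. The sum of the myofibre markers was higher from PN14 on, at 21653 FPKM at E18.5 and 89127 in the adult. The 5 fibroblast markers summed to 4412 FPKM at E18.5, 3508 at PN2, 1189 and 1477 at PN14, 1275 at PN28 and 438 at 22 weeks, with none at 0. None of the 5 was called from PN2 to PN14 and 4 fell from E18.5 to adult (23.6% of all tested genes did). The drop in the sum is mainly that of Col1a1 and Col3a1, at 2046 and 1829 FPKM at E18.5 and 45.9 and 41.1 in the adult. Pdgfra and Lum were also lower in the adult, whereas Dcn was at 393 FPKM at E18.5 and still at 329 in the adult. The 3 satellite cell markers, of the stem cells of muscle, came to 59.6 FPKM at E18.5, 53.0 at PN2, 11.4 and 17.6 at PN14, 8.25 at PN28 and 6.82 at 22 weeks. Of these, 2 of 3 fell from PN2 to PN14 (11.2% of all tested genes did). The 4 proliferation markers summed to 111 FPKM at E18.5, 72.9 at PN2, 8.97 and 22.5 at PN14, 9.44 at PN28 and 0.31 at 22 weeks. All 4 fell from PN2 to PN14 (11.2% of all tested genes did). The 5 bone and cartilage markers summed to 110 and 61.7 FPKM at E18.5 and PN2, 4.78 and 5.33 at PN14 and 0.19 in the adult. Ibsp was at 0 from PN14 on and Bglap at 0 in the adult. From PN2 to PN14 and from E18.5 to adult, 5 of 5 fell (11.2% and 23.6% of all tested genes did). These marker calls are under TMM, whereas the sums are in FPKM, which are scaled to library size. Liver markers, whose tissue is the main source of circulating IGF1, summed to at most 0.12 FPKM in any library. The part of these cells in the changes of Igf1 and its binding proteins was not tested.

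Igf2, the fetal IGF, was far above Igf1 per length early on and close to it in the adult. It was at 2434 FPKM at E18.5, 2489 at PN2, 115 and 497 at PN14, 27.4 at PN28 and 3.79 at 22 weeks. The PN14 mice differed 3.61-fold in normalized CPM, and the PN2 to PN14 step was not called under TMM (log2 fold change -2.45, SE 0.817, edgeR adjusted p = 0.0668). From E18.5 to adult Igf2 fell by 8.31 (SE 1.35, edgeR adjusted p = 0.00442). With library size alone these log2 fold changes were -3.04 and -9.33. Per length, Igf2 mRNA was 47.4 times Igf1 mRNA at E18.5, 66.1 times at PN2, 16.8 and 48.4 times in the PN14 mice, 2.76 times at PN28 and 1.28 times in the adult. Insr, the insulin receptor, was not called in any comparison, with a log2 fold change from E18.5 to adult of 0.97 under TMM (SE 0.228, edgeR adjusted p = 0.0151) and -0.06 with library size alone. It was at 10.9 FPKM at E18.5, 13.2 at PN2, 8.41 and 9.08 at PN14, 7.94 at PN28 and 10.5 at 22 weeks. The ratio of Insr to Igf1r per length was 1.06 at E18.5, 1.45 at PN2, 3.70 and 3.30 at PN14, 4.84 at PN28 and 7.07 at 22 weeks. The ratio rose at each stage and the PN14 mice lay close together. The ratio of Irs1 to Irs2, by contrast, was 3.88 and 11.0 in the PN14 mice and between 2.69 and 9.69 elsewhere, so that no course could be read beyond that spread.

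**Figure D4:**
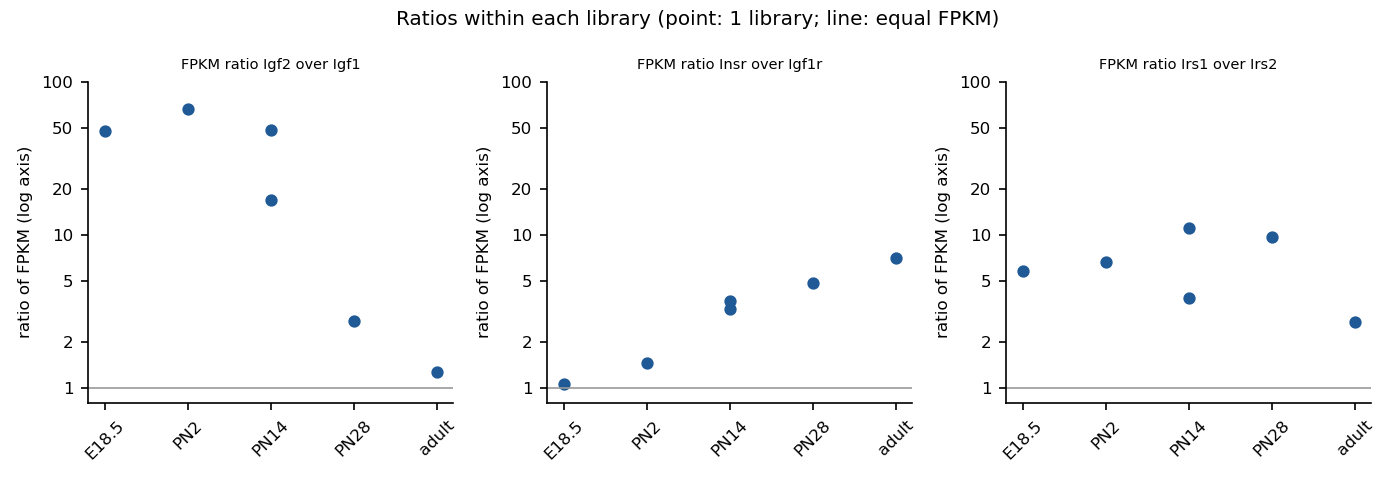
Ratios of FPKM within each library (vertical axis, log scale, the same in the 3 panels) at the 5 stages (horizontal axis), with 1 point per library and a line at a ratio of 1. Igf2 over Igf1 drops from 47.4 at E18.5 to 1.28 in the adult, Insr over Igf1r climbs from 1.06 to 7.07, and the PN14 points of Irs1 over Irs2 lie at 3.88 and 11.0.

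Of the 9 other ligands, receptors and binding proteins, 6 were tested. Igf2r, which clears IGF2 and does not signal as IGF1R does, fell by 1.11 from PN2 to PN14 (SE 0.253, edgeR adjusted p = 0.0244), with 85.5 FPKM at E18.5, 56.9 at PN2, 14.1 and 19.7 at PN14, 11.1 at PN28 and 10.3 at 22 weeks. Igfals, the acid-labile subunit that joins IGF1 and IGFBP3 in a blood complex, rose by 1.82 over that interval (SE 0.459, edgeR adjusted p = 0.0321) from a low level, at 0.25 FPKM at PN2 and 0.64 and 0.47 at PN14. Insrr, a receptor relative of low level with 104 counts at PN2 and 199 and 278 at PN14, rose by 2.02 (SE 0.397, edgeR adjusted p = 0.0165) and had 17 counts in the adult. With library size alone Igfals and Insrr were not called over this interval. Igfbp1, at 12 counts at E18.5 and 4 at PN2 and then at 0 or 1, was tested and not called. Ins1 had 0 counts in all 6 libraries, and Ins2 and Igfbpl1 had at most 7 and 4.

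Among the 6 genes for proteases that cut IGF binding proteins and for stanniocalcins that block those proteases, 2 fell from PN2 to PN14 (11.2% of all tested genes did) and 5 from E18.5 to adult (23.6% did), and none rose. Pappa2, a protease that cuts IGFBP3 and IGFBP5, was at 1.23 FPKM at E18.5, 0.66 at PN2, 0.03 in both PN14 libraries, 0.06 at PN28 and 0.01 at 22 weeks. It fell by 3.66 from PN2 to PN14 (SE 0.309, edgeR adjusted p = 0.00349). Adam12, which also cuts binding proteins and is made in regenerating muscle, was at 12.9 FPKM at E18.5, 11.2 at PN2, 1.22 and 2.94 at PN14, 0.83 at PN28 and 0.08 at 22 weeks, and it fell by 1.81 (SE 0.376, edgeR adjusted p = 0.0193). From E18.5 to adult Pappa (-2.03), Stc1 (-2.84) and Stc2 (-1.40) fell as well, these 3 being named after their values were seen. Htra1 was the 1 gene of the list not called under TMM, at -0.17. With library size alone it was at -1.19 and all 6 genes fell from E18.5 to adult. Genes for the proteases and genes for their inhibitors are both among the 5 that fell under TMM.

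In the growth hormone list, 1 of 8 genes rose from PN2 to PN14 (beside 11.8% of all tested genes), and 3 rose and 2 fell from E18.5 to adult (beside 21.4% and 23.6%). Over the shorter interval, 0 rose and 2 fell with library size alone. Stat5b, the transcription factor that carries the growth hormone signal to Igf1, was at 22.2 FPKM at E18.5, 30.6 at PN2, 48.5 and 38.6 at PN14, 42.9 at PN28 and 72.0 at 22 weeks. It rose by 1.24 from PN2 to PN14 (SE 0.348, edgeR adjusted p = 0.0432), but by 0.56 and without a call with library size alone. From E18.5 to adult Ghr, the receptor (2.51), its kinase Jak2 (1.98) and Stat5b (2.80) rose and the feedback inhibitors Socs1 (-2.42) and Socs3 (-1.90) fell, of which all but Stat5b were named after their values were seen. With library size alone Jak2 was at 0.95 and not called.

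Of 12 adaptors and inhibitors at the receptor, 1 rose and 2 fell from PN2 to PN14, beside 11.8% and 11.2% of all tested genes. Grb10, an imprinted inhibitor of the IGF1 and insulin receptors, was the most abundant of them early, at 414 FPKM at E18.5, 339 at PN2, 48.6 and 88.6 at PN14, 28.5 at PN28 and 7.14 at 22 weeks. It fell by 1.70 from PN2 to PN14 (SE 0.382, edgeR adjusted p = 0.0239) and by 4.84 from E18.5 to adult (SE 0.539, edgeR adjusted p = 0.00180). Its relative Grb14, an inhibitor of the insulin receptor, went the other way, at 5.25 FPKM at E18.5, 6.63 at PN2, 12.57 and 13.97 at PN14, 6.83 at PN28 and 6.67 at 22 weeks, and it rose by 1.66 from PN2 to PN14 (SE 0.191, edgeR adjusted p = 0.00557). Irs4, a substrate of fetal tissues, had 35 and 76 counts in the E18.5 and PN2 libraries and 0 in all 4 later ones. Set against a floor of 3 counts per library, it was at least 13.8-fold lower at PN14 than at PN2.

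Further down, 2 of 15 genes of PI3K and AKT, 1 of 14 of mTORC1, S6 kinase and the 4E-BPs, and 1 of 6 of GSK3 and FoxO were called from PN2 to PN14, beside 23.0% of all tested genes. Akt1, the growth-linked AKT kinase, fell by 1.08 (SE 0.237, edgeR adjusted p = 0.0225), with 138 FPKM at E18.5, 130 at PN2, 31.5 and 47.6 at PN14 and 16.1 at 22 weeks. Akt2, the isoform tied to glucose uptake and picked after its values were seen, was not called in any comparison under TMM. It was at 85.2 FPKM at E18.5, 91.0 at PN2, 48.6 and 57.1 at PN14, 59.6 at PN28 and 75.0 at 22 weeks. Its log2 fold change from E18.5 to adult was 0.86 under TMM (SE 0.275, edgeR adjusted p = 0.0406), below the size required. With library size alone it was -0.17. From PN2 to PN14 the values were -0.12 under TMM and -0.78 with library size alone. Pik3cd, a PI3K catalytic subunit, rose by 1.19 under TMM (SE 0.206, edgeR adjusted p = 0.0123) and was at 0.53 with library size alone. Deptor, an inhibitor of mTOR, fell by 1.83 (SE 0.160, edgeR adjusted p = 0.00374) and was at 12.2 FPKM at E18.5, 27.8 at PN2, 4.42 and 5.13 at PN14, 11.2 at PN28 and 5.01 at 22 weeks, with no steady course. Foxo6 rose by 2.00 (SE 0.239, edgeR adjusted p = 0.00579), from 4.79 FPKM at PN2 to 12.6 and 11.5 at PN14, and was back at 4.12 in the adult.

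Over the 67 tested genes of the 7 lists together, 6 rose and 7 fell from PN2 to PN14 (11.8% and 11.2% of all tested genes did), with a median log2 fold change of 0.03 against -0.60 for the 10 genes above. From E18.5 to adult 17 rose and 16 fell (21.4% and 23.6% of all tested genes did), with a median of 0.33. The lists' shares in both comparisons were near those of all genes. With library size alone these counts became 2 and 18 for the shorter interval and 5 and 28 for the longer. Mlst8, Akt1s1, Tsc1 and Eif4ebp2 of the mTORC1 list and Gsk3a, Gsk3b, Foxo4 and Foxo6 of the last list rose from E18.5 to adult under TMM, by between 1.02 and 2.06, and were named after their values were seen. Of these 8, Eif4ebp2 alone was also called with library size alone, and Mlst8 was then at -0.01.

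**Figure D5:**
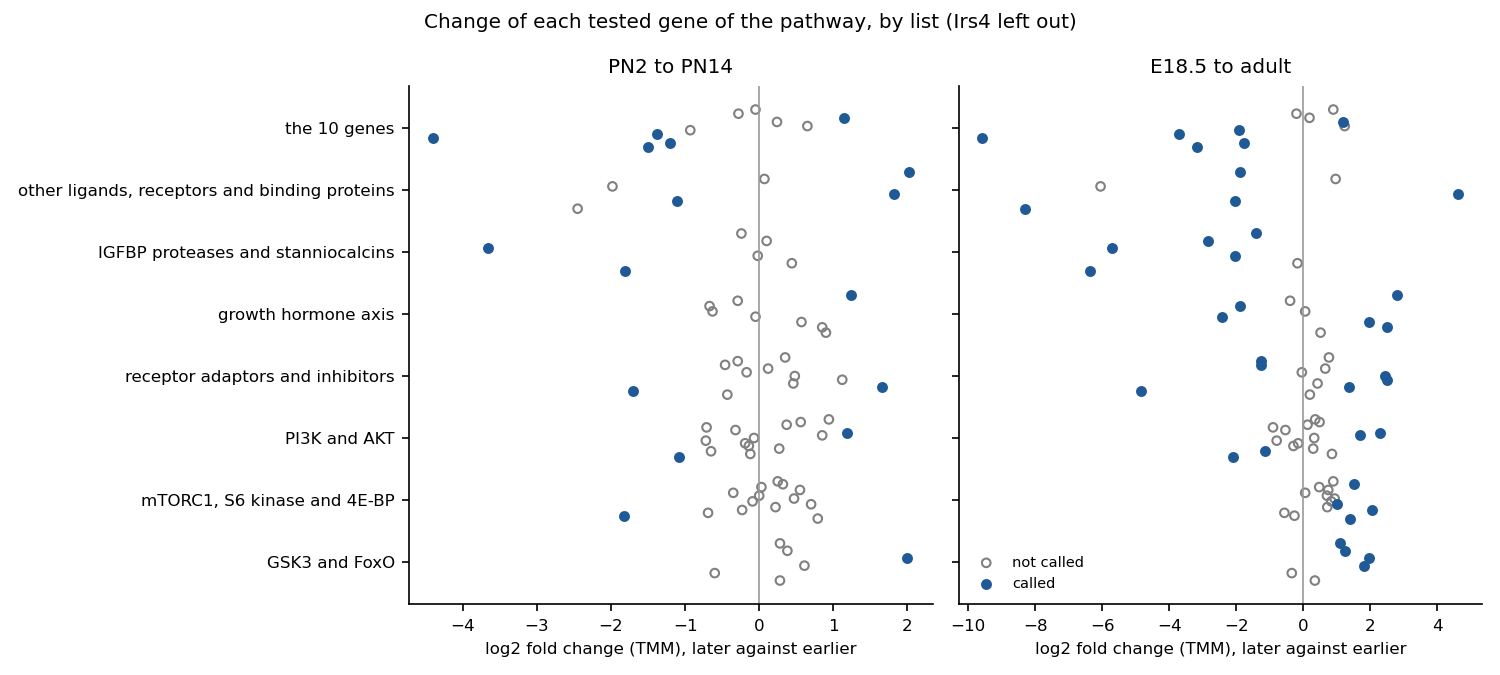
Log2 fold change under TMM scaling (horizontal axis) of the tested genes of the 10-gene set and of the 7 other pathway lists (vertical axis) from PN2 to PN14 and from E18.5 to adult, with filled points for called genes, open points for the rest, and Irs4 left out because it is at 0 counts from PN14 on. The lists from the adaptors down centre near 0 from PN2 to PN14, and the protease list lies to the left of 0 from E18.5 to adult but for 1 gene near 0.

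Likeness of course was measured as the root mean square difference between centred log2 normalized CPM over the 6 libraries, among 8840 genes with a mean of at least 10 CPM. The nearest to Igf1 were Ncapg2 (0.145), a condensin subunit, Fn1 (0.150), which encodes fibronectin, Mcm3 (0.181), a replication helicase subunit, Angptl1 (0.202) and Ptgfrn (0.207). Fn1, the most abundant of these, was at 206 FPKM at E18.5, 184 at PN2, 29.4 and 40.9 at PN14, 35.1 at PN28 and 11.4 at 22 weeks. The nearest to Igfbp5 were Dolk (0.0713), Aimp1 (0.0853), Mrs2 (0.0854), Spata2 (0.0917) and Cpped1 (0.0930), all at less than 79 FPKM throughout. Within the 10 genes, Igf1r and Igfbp4 were nearest to each other (0.252), as were Igfbp5 and Igfbp6 (0.263). Igf1 was nearest to Igfbp4 (0.429), Igfbp3 to Igf1 (0.539) and Igfbp2 to Igfbp3 (1.80). Igfbp7 (0.562) and Irs1 (0.486) were each nearest to Igfbp6, and Irs2 to Irs1 (0.702). These values describe 6 libraries that share their depth and scaling, and carry no test.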

How the data were processed

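Polyadenylated RNA of 6 gastrocnemius libraries (TruSeq, paired-end) was analysed from a table of 23367 gene entries. Alignment by the authors used TopHat2 2.0.5 and mm9. The authors counted fragments on RefSeq models with RSEM and deposited expected counts, listed as whole numbers. They also deposited FPKM values, scaled to gene length and library size alone. The annotation version and strand setting are not given in the sources used here.

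The expected counts were rounded and fitted in R 4.3.3 with edgeR 4.0.16 (TMM, filterByExpr, quasi-likelihood test, Benjamini-Hochberg adjustment over 16882 genes), with all 6 libraries, 5 stages and 1 residual degree of freedom (common biological coefficient of variation 0.188, prior degrees of freedom 4.86). Calls needed a log2 fold change of 1 or more in either direction together with an adjusted p below 0.05. The standard error is the log2 fold change divided by the square root of F. Differences of 2-fold used log2(CPM + 0.1). The only replicate spread behind the p-values is that of the 2 PN14 mice. The fit draws each gene's spread towards that of all genes, so a p-value does not rest on the gene's own pair alone. The fit was tested on simulated data. Depth was 125402932 to 157868359 counts per library, and a floor of 3 counts covers counting error only.

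The 10 genes, 7 pathway lists (70 genes) and marker lists were chosen with earlier results of these data known. Named are the 10 genes, the list of other ligands, receptors and binding proteins in full, up to 3 called genes with the largest PN2 to PN14 change from each other list, and the 5 genes nearest in course to Igf1 and to Igfbp5. Alternatives were library size, DESeq2 1.42.0 size factors or Wald test, edgeR's exact test, other filters, a pseudocount of 1, counts in place of FPKM for shares, and leaving out either PN14 library. Gene positions came from GENCODE M1 (mm9) and promoters from RefSeq (GRCm38.p6). Python 3.11.15, numpy 2.4.6, pandas 2.3.3 and matplotlib 3.10.9 were used. Splicing was not analysed here.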

Additional observations from a re-analysis of the deposited data

How the results depend on the processing

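The calls among the 10 genes in the PN2 to PN14, E18.5 to PN2 and E18.5 to adult comparisons stayed within 1.5 times their number under every alternative run, but with library size alone Igfbp4 replaced Igfbp7 from PN2 to PN14 and Irs1 replaced Igfbp6 from E18.5 to adult, and the genes that rose went from 1 to 0 in both. From PN14 to PN28 the 0 calls became 2 with library size alone (Igfbp2 and Igfbp3) and 1 with the DESeq2 Wald test or the edgeR exact test (Igfbp2). From PN28 to adult 0 became 5 with library size alone, 4 with the Wald or the exact test and 3 with no filter on low counts. Genes past 2-fold from PN14 to PN28 went from 1 to 2 with library size alone and to 0 with a pseudocount of 1 CPM. Without PN14 replicate 1 or without PN14 replicate 2 they came to 2 and 2, and those from PN2 to PN14 to 6 and 5. Library size alone turned the direction of Igfbp5 (-0.01) and Igfbp6 (-0.42) from PN2 to PN14 and of Igfbp7 (-0.84) and Irs2 (-0.12) from E18.5 to adult. By counts not divided by length, Igfbp5 held 47.3%, 51.1%, 68.2%, 79.1% and 86.6% of the binding protein sum at the 5 stages in order of age.

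Over all genes, the calls from E18.5 to PN2 were 5 with TMM and the quasi-likelihood test, 241 with library size alone, 165 with the Wald test, 346 with the exact test and 97 with no filter. From PN14 to PN28 they were 3, 262, 135, 241 and 56, and from PN28 to adult 88, 868, 808, 1146 and 835, with 13 among genes of at least 1 CPM. With library size alone 854 genes rose and 4971 fell from PN2 to PN14, against 1988 and 1896 with TMM, and 1347 rose and 7700 fell from E18.5 to adult, against 3606 and 3978. Why the tests differ was not tested. No paired analysis was possible because replicate numbers exist at PN14 only. With 1 library at 4 of the 5 stages, animal-to-animal spread there is unknown.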

Other observations

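Outside the lists' named genes, Cish, a growth hormone target that dampens STAT5 signalling, stood out by its PN28 value and was picked after its values were seen. It was at 11.2 FPKM at E18.5, 9.65 at PN2, 5.48 and 18.4 at PN14, 41.4 at PN28 and 7.86 at 22 weeks. PN28 was the highest of the 6 libraries, but the PN14 mice differed by more than 3-fold and the steps to and from PN28 were not called by edgeR (log2 fold changes 2.09 and -2.26, adjusted p = 0.479 and 0.171). Socs1 likewise had its highest value at PN28, at 7.23 FPKM, and its lowest in the adult, at 0.50.

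PN14 replicate 2 had the higher FPKM of the pair for Igf1, Igf1r and Igfbp2 to Igfbp7, for Irs1 and for Igf2, and the lower for Irs2. In normalized CPM the log2 difference of replicate 2 from replicate 1 was -0.20 for Igfbp5, -0.01 for Igfbp6, -0.05 for Irs1 and 0.02 for Igf1r. For Igfbp5, Igfbp6 and Irs1 the direction seen in FPKM thus turned with the scaling, and for Igf1r the gap nearly closed. Replicate 2 stayed higher for Igf1 (0.33), Igfbp2 (0.56), Igfbp3 (0.41), Igfbp4 (0.32), Igfbp7 (0.30) and Igf2 (1.85), and lower for Irs2 (-1.54). The same library held 618 FPKM summed over 3 Schwann cell markers, against 156 in replicate 1, and 22.5 against 8.97 over 4 proliferation markers. The part of these markers in the gap between the mice was not tested.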
